A study of Homo sapiens with 12 samples.

Results

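The genes described here are the 10 genes of lipogenesis and triglyceride synthesis FASN, ACACA, ACACB, ACLY, SREBF1, GPAM, AGPAT2, LPIN1, DGAT1 and DGAT2. They were chosen by name for their roles, with earlier results of these data known. Together they are 10 of the 28901 named genes in the table of counts. They were followed in cultured human adipocytes in which the long intergenic non-coding RNA linc-ADAIN had been knocked down (KD). Poly(A) RNA was sequenced from ASC52telo, a line of human adipose-derived mesenchymal stem cells immortalized with hTERT. All cells carried a lentiviral shRNA vector that also encodes ZsGreen and had been sorted for green fluorescence. All had been taken to day 14 of an adipogenic protocol with insulin and dexamethasone. By the paper's methods, isobutylmethylxanthine and the PPARγ agonist rosiglitazone were present only in the first week and not in the maintenance medium that followed. The vector held either a scramble shRNA or 1 shRNA against linc-ADAIN, and the cells were left untreated or given LPS at 100 ng/mL for 4 h, which makes 4 groups of 3 libraries called scramble, scramble with LPS, KD and KD with LPS. Since 1 cell line and 1 targeting shRNA were used and the libraries of a group are replicates of 1 experiment, p-values measure only the spread between those libraries. linc-ADAIN transcripts themselves were not analysed here, so the KD label was not checked on its target.

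Lipogenesis turns surplus carbon into fatty acids. ATP citrate lyase (ACLY) cleaves cytosolic citrate to acetyl-CoA, the acetyl-CoA carboxylases ACACA and ACACB make malonyl-CoA from it, and fatty acid synthase (FASN) joins the units into palmitate. Fatty acids are then placed on glycerol-3-phosphate in turn by a mitochondrial glycerol-3-phosphate acyltransferase (GPAM) and an acylglycerol phosphate acyltransferase (AGPAT2). A phosphatidate phosphatase (LPIN1) removes the phosphate. A diacylglycerol acyltransferase (DGAT1 or DGAT2) adds the last fatty acid, which yields the triglyceride stored in the adipocyte's lipid droplet. SREBF1 encodes the transcription factor SREBP-1, a known activator of many of these genes.

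The DNA before the start sites of the members is shown first, as background, and its part in their changes was not tested. RefSeq promoter windows (GRCh38.p14) were held for 7 of the 10 genes, with 13 start sites in all, and the 250 bases before each start were searched on both strands for a sterol element (TCACNCCAC, the kind of site SREBP proteins bind), an E-box (CACGTG), a GC box (GGGCGG) and a CCAAT box (CCAAT). The windows of 4 genes are printed 5′ to 3′ on the gene's own strand, with capitals marking GC boxes and CCAAT boxes in either orientation. SREBF1 is given as the regulator, ACLY and GPAM as the first enzymes of fatty acid synthesis and of triglyceride assembly, and ACACB as the member with the widest range of levels. They lie at chr17:17836987-17837236, chr17:41919023-41919272 and chr10:112183766-112184015, all on the minus strand, and for the first start of ACACB at chr12:109116337-109116586 on the plus strand.
SREBF1: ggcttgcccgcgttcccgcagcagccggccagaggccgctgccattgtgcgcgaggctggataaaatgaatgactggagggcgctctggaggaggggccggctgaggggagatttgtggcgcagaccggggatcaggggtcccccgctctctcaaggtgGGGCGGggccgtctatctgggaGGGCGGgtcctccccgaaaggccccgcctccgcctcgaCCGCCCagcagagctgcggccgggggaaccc
ACLY: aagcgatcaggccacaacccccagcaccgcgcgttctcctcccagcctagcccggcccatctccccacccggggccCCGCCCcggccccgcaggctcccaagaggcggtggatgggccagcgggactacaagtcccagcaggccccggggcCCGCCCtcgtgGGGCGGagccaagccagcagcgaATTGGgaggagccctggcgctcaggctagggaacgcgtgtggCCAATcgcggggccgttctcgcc
GPAM: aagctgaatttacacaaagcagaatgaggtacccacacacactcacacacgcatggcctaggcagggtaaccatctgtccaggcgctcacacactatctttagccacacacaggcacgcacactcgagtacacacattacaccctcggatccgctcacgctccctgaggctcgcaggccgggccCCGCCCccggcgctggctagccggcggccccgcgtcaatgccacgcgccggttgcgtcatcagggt
ACACB: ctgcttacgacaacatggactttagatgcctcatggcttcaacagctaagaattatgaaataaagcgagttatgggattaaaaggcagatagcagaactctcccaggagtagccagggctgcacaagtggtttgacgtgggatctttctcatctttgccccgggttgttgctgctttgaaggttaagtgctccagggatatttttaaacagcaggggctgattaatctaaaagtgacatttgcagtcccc
The printed SREBF1 window held 3 GC boxes, that of ACLY held 3 GC boxes and 2 CCAAT boxes, and that of GPAM held 1 GC box. The printed ACACB window held none of the 4 motifs, but the window of its other start, not printed, held 3 GC boxes and 2 CCAAT boxes. Over the 13 windows of members, a GC box was found in 10 and a CCAAT box in 5, against 42.6% and 32.0% of all 35116 RefSeq windows of this length. The ACLY windows share 179 bases and the same 2 CCAAT boxes, and with these windows counted as 1 the motifs were found in 9 and 4 of 12. Neither the sterol element (0.883% of all windows) nor the E-box (6.34%) was among the letters of the 13 windows. For SREBF1 only 1 start, near the 5′ end of the gene, was searched, and any other start of it was not. The GC and CCAAT letters do not overlap each other in the printed windows, and a match in letters is a description, not a binding site. FASN, DGAT1 and DGAT2 had no window in the table.

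Levels are given as CPM, the counts of a gene per 1e6 counts of its library after scaling by the TMM method of edgeR. Counts on named genes ranged from 28.4 to 53.8 M (1e6) per library, and libraries of a group had correlations of log2 CPM of 0.990 to 0.996. The LPS labels were checked with CXCL8, IL6, CCL2, NFKBIA, TNFAIP3, ICAM1 and CCL20, and 7 of 7 were higher with LPS in scramble and 7 of 7 in KD by edgeR's test. Of the 11 adipocyte markers examined, ADIPOQ, FABP4, PLIN1 and CIDEC were abundant, with ADIPOQ at 919 ± 208 CPM in scramble (SD, n = 3), whereas LPL, SLC2A4 and LEP stayed at no more than 82 counts in any library. The summed level of the 11 markers was 3152 to 4362 CPM in scramble, 3682 to 4296 with LPS, 696 to 1878 in KD and 582 to 1239 in KD with LPS, and replicate 3 was the lowest library of both KD groups. For that reason the KD results are also given without it. The summed level of 8 stromal and preadipocyte markers tested, of 9 listed, ranged from 3417 to 4427 CPM over the 4 groups, and 3 of the 8 were higher and 3 lower in either KD comparison. That of 7 macrophage and leukocyte markers was 4.66 to 7.57 CPM in the scramble groups and 57.2 to 87.3 CPM in the KD groups, of which CD163 (98 to 283 counts against 1913 to 3672) made up 54.8% to 85.8% and 93.3% to 96.3%. CD163 was the only 1 of 5 tested that passed without LPS, and with LPS CD163 and CD14 were higher, 2 of 6 tested, CD14 by 2.69 on the log2 scale (adjusted p = 0.0014). CD14 was low throughout, at 9 to 15 counts in scramble with LPS and 63 to 89 in KD with LPS. Without LPS it was at 53 to 75 counts in scramble and 43 to 117 in KD. In scramble it fell with LPS by 1.85 (adjusted p = 0.026 by edgeR). PTPRC was at 0 to 12 counts and AIF1 at 0 in every library. The summed level of 5 endothelial markers was 23.6 to 27.1 CPM in scramble, 15.3 to 17.0 with LPS, 11.8 to 12.3 in KD and 8.45 to 13.2 in KD with LPS, and CDH5 did not pass 3 counts. VWF, at −2.12, and TEK, at −1.79, were lower in KD without LPS, 2 of 4 tested, and with LPS 3 of 4 were lower, VWF by 2.77, and KDR was higher (2 to 6 counts against 94 to 120). The part of these marker changes in the members' values was not tested. Fewer adipocytes in a dish and less RNA of a gene in each adipocyte cannot be told apart in these bulk libraries.

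Without LPS, 9 of the 10 genes were lower in KD than in scramble at an adjusted p under 0.05, where 15.1% of the 16217 genes tested were lower, and none was higher, where 12.1% were. Of these, 5 were also past 2-fold, against 3.49% of all genes. Without KD replicate 3, 8 genes were called, AGPAT2 being the one lost. The median log2 fold change of the 10 genes was −0.98, with values from −1.37 to −0.04, beside 0.02 over all genes tested. In 9 of 10 genes every KD library lay below every scramble library, which held for 22.5% of all genes. Over the whole list, the summed level was 2741 to 3061 CPM in scramble and 1257 to 1530 CPM in KD. Beside this, 7 of the 11 adipocyte markers were lower and none was higher, with FABP4 at −1.65 (SE 0.27, adjusted p = 0.00071). The part of that fall in the members' values was not tested. The paper reports the opposite direction for FASN, FABP4, PPARγ, adiponectin and ATGL with this shRNA at the same day of differentiation. PNPLA2, the gene of ATGL, was at −1.11 here (adjusted p = 3.2e-05 by edgeR's test). There, mRNA by qPCR and protein were higher after KD, and lipid storage and cellular triglyceride were increased. In the paper's sequencing results, PGD, an enzyme that yields NADPH, was lower after KD, at a log2 fold change of −1.42 as here. The cause of this difference from the sequenced libraries was not tested, so the lower levels are described for these libraries only.

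**Figure D1:**
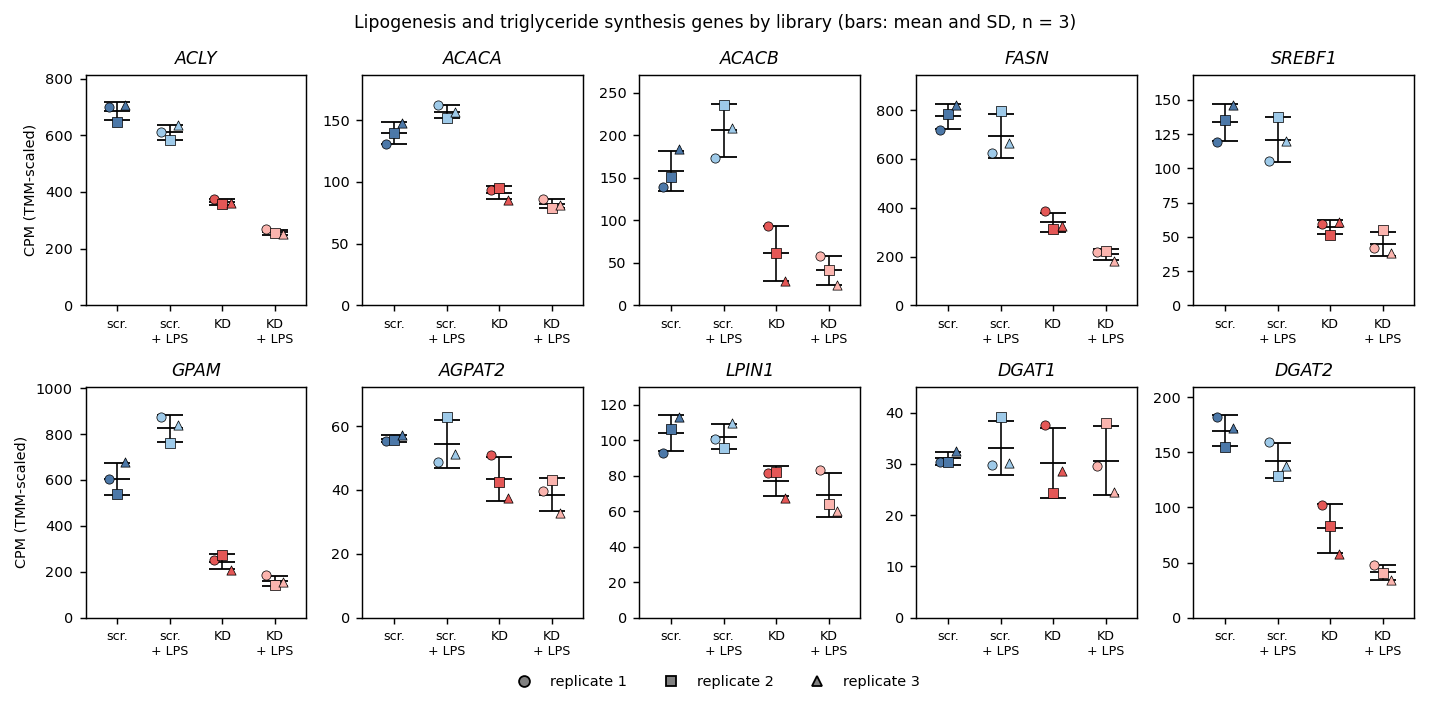
CPM of each of the 10 genes (y axis, linear, starting at 0) in the 3 libraries of each group (x axis, scr. for scramble), with the mean and SD as horizontal bars and the replicate number as the shape of the point. Without LPS and with LPS alike, the KD libraries sit below the scramble libraries of the same condition for each gene except DGAT1, and GPAM is highest in scramble with LPS, at 825 ± 57.6 CPM.

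Of the genes that make fatty acids, ACLY (chr17:41866917-41930542) was at 699.7, 647 and 708 CPM in the scramble libraries and 375, 358 and 360.5 CPM in the KD libraries. The libraries of each group lay close together, and the groups were well apart. The log2 fold change was −0.91 (SE 0.072, adjusted p = 2.5e-06 by edgeR's quasi-likelihood test). ACACA (chr17:37084992-37406836), the carboxylase that supplies malonyl-CoA for synthesis, was at 131, 140 and 148 CPM in scramble and 93.5, 94.8 and 85.0 CPM in KD. It fell by 0.61 on the log2 scale (SE 0.081, adjusted p = 0.00015), the smallest change among the genes of fatty acid synthesis.

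ACACB (chr12:109116587-109268226), the carboxylase whose malonyl-CoA is known to restrain mitochondrial fatty acid oxidation, was at 139, 151 and 184 CPM in scramble and 93.3, 61.7 and 28.4 CPM in KD. All KD libraries were below all scramble libraries, but relative to their mean they differed among themselves by more than those of any other member, and replicate 3 was the lowest. The log2 fold change was −1.37 (SE 0.30, adjusted p = 0.0052), and without KD replicate 3 it was −1.02 (adjusted p = 0.0015). FASN (chr17:82078338-82098294) was at 719, 783 and 822 CPM in scramble and 385, 311 and 324 CPM in KD. Its change was −1.18 (SE 0.094, adjusted p = 2.6e-06), with no overlap of the groups.

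The regulator SREBF1 (chr17:17810399-17837002) was at 119, 135 and 147 CPM in scramble and 59.4, 51.0 and 60.6 CPM in KD. Here KD replicate 3 was the highest of its group. The log2 fold change was −1.23 (SE 0.099, adjusted p = 2.8e-06), and it was −1.27 without that library.

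Among the genes of triglyceride assembly, GPAM (chr10:112149865-112215377), which makes lysophosphatidate at the first step, was at 602, 538 and 678 CPM in scramble and 251, 271 and 208 CPM in KD, a log2 fold change of −1.31 (SE 0.11, adjusted p = 4.4e-06). AGPAT2 (chr9:136673143-136687457), which adds the next fatty acid and is mutated in a congenital lipodystrophy, was at 55.2, 55.7 and 57.4 CPM in scramble and 51.0, 42.4 and 37.4 CPM in KD. The KD libraries were lower but reached close to the scramble values, and the change of −0.36 (SE 0.11) had an adjusted p of 0.027. That call was lost at −0.26 (adjusted p = 0.085) without KD replicate 3, at adjusted p of 0.055 to 0.074 without KD replicate 2 or any 1 of the scramble libraries, and at −0.26 (adjusted p = 0.091) with scaling by library size only.

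LPIN1 (chr2:11677595-11827409), which removes the phosphate to give diacylglycerol, was at 92.9, 106 and 113 CPM in scramble and 81.5, 82.1 and 67.2 CPM in KD. It fell by 0.43 on the log2 scale (SE 0.10, adjusted p = 0.0076). DGAT2 (chr11:75759512-75801535), the acyltransferase linked to newly made fatty acids, was at 182, 155 and 172 CPM in scramble and 102, 83.6 and 57.6 CPM in KD, with replicate 3 the lowest. Its log2 fold change was −1.06 (SE 0.16, adjusted p = 0.00043), and −0.87 (adjusted p = 0.00024) without KD replicate 3, which is under 2-fold.

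DGAT1 (chr8:144314584-144326910), the other enzyme of the last step, was the only member that did not pass the test. It was at 30.4, 30.3 and 32.5 CPM in scramble and 37.5, 24.2 and 28.6 CPM in KD, so the KD libraries spanned the scramble ones. The log2 fold change was −0.04 with a 95% confidence interval from −0.35 to 0.26 (adjusted p = 0.86), and it was 0.059 with scaling by library size only. The same scaling moved the median log2 fold change of all genes from 0.02 to 0.13. DGAT1 also overlaps HSF1 on the opposite strand, as SREBF1 overlaps RAI1 and ACACA overlaps C17orf78. ACACB overlaps UNG on its own strand. Whether the counting used strand is not given in the sources used here.

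With LPS in both groups, 9 of 10 genes were lower in KD than in scramble, where 14.2% of 15981 genes were lower, and none was higher, where 12.7% were. Here 6 were past 2-fold, against 3.90% of all genes, and 9 did not overlap, against 20.6%. The median log2 fold change was −1.33, with values from −2.37 to −0.11, beside 0.03 over all genes. Summed over the 10 genes, the level was 2888 to 2992 CPM in scramble with LPS and 885 to 1057 CPM in KD with LPS. Among the adipocyte markers 8 of 11 were lower and none was higher.

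GPAM had the largest difference. It was at 875, 762 and 837 CPM in scramble with LPS and 185, 140 and 154 CPM in KD with LPS, so the lowest library of the first group was over 4 times the highest of the second. The log2 fold change was −2.37 (SE 0.10, adjusted p = 2.6e-09), or 5.17-fold lower. ACACB was at 174, 236 and 208 CPM against 58.0, 41.6 and 24.2 CPM, a log2 fold change of −2.32 (SE 0.23, adjusted p = 4.5e-06), and at −2.05 without KD with LPS replicate 3. DGAT2 was at 160, 129 and 138 CPM against 47.9, 40.9 and 34.4 CPM, a change of −1.79 (SE 0.12, adjusted p = 1.2e-07). FASN was at 622, 795 and 664 CPM against 218, 224 and 183 CPM, a change of −1.73 (SE 0.10, adjusted p = 3.5e-08). In these 4 genes the KD libraries were all far below the scramble ones.

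ACLY fell by 1.24 on the log2 scale (SE 0.071, adjusted p = 2.6e-08), with scramble libraries at 611, 584 and 638 CPM and KD libraries at 268, 255 and 251 CPM. SREBF1 was at 105, 138 and 120 CPM against 41.6, 54.6 and 38.5 CPM and fell by 1.42 (SE 0.13, adjusted p = 2.7e-06). ACACA was at 162, 151 and 157 CPM against 86.2, 78.8 and 81.6 CPM and fell by 0.93 (SE 0.077, adjusted p = 8.7e-07). Each of these 3 genes was lower in every KD library than in any scramble library. The middle steps of assembly moved least among the genes that passed. AGPAT2, at 48.8, 62.9 and 51.3 CPM against 39.6, 43.2 and 32.8 CPM, fell by 0.49 (SE 0.12, adjusted p = 0.0088). LPIN1, at 100.4, 95.7 and 109.5 CPM against 83.1, 63.9 and 59.9 CPM, fell by 0.56 (SE 0.12, adjusted p = 0.0024). DGAT1 again did not pass, at 29.9, 39.2 and 30.2 CPM against 29.5, 37.9 and 24.5 CPM, a log2 fold change of −0.11 with an interval from −0.44 to 0.23 (adjusted p = 0.69). No call of these 9 was lost with replicate 3 of KD with LPS left out.

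**Figure D2:**
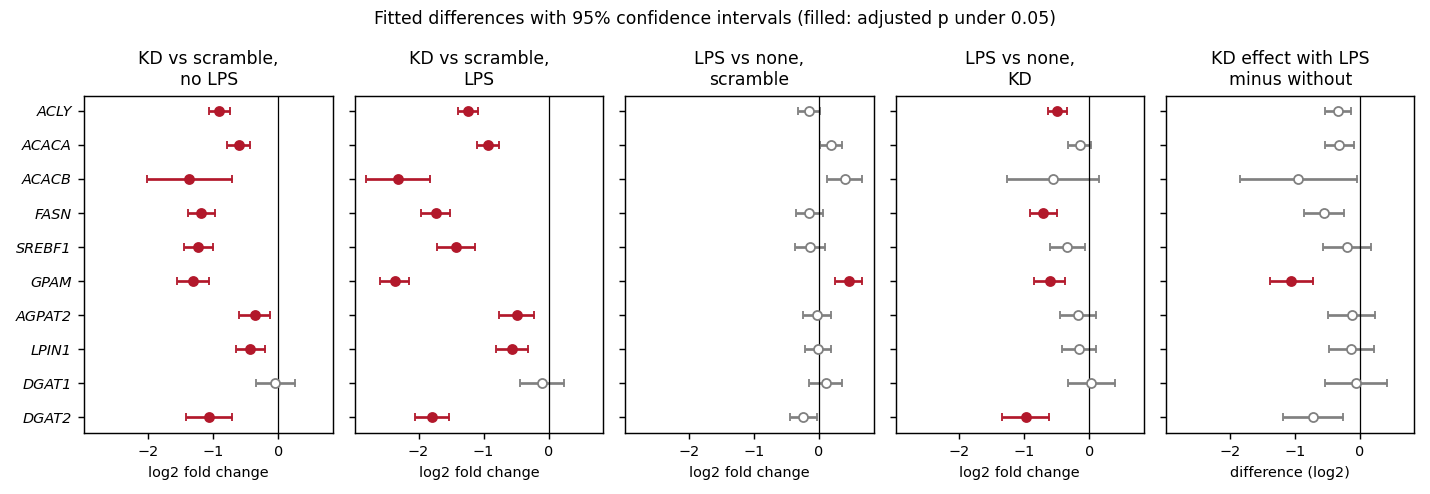
Log2 fold change of each gene (x axis) with its 95% confidence interval, in the 4 comparisons of groups and, at the right, the difference of the KD effects with and without LPS. Filled points passed an adjusted p under 0.05. The points of the 2 KD panels lie left of 0, the interval of DGAT1 holds 0, and GPAM is the only gene filled in all 5 panels, to the right of 0 for LPS in scramble and to the left in the others.

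LPS alone changed 1 of the 10 genes in scramble cells. GPAM was higher with LPS, at a log2 fold change of 0.46 (SE 0.096, adjusted p = 0.0077), where 5.90% of 15920 genes were higher, and its libraries at 875, 762 and 837 CPM were all above those at 602, 538 and 678 CPM. None was lower at an adjusted p under 0.05 by edgeR, against 8.38% of all genes, and 1 had an unadjusted p under 0.05 in that direction. DESeq2 also called none lower and called 2 higher, GPAM and ACACB, where it called 7.81% of all genes higher. With a block for the replicate number, 3 were called, GPAM and ACACB (0.39, adjusted p = 0.0016) higher and DGAT2 lower (−0.24, adjusted p = 0.019). ACACB was at 158 ± 23.0 CPM without and 206 ± 31.2 CPM with LPS, 0.40 on the log2 scale (SE 0.12, adjusted p = 0.053). ACACA and ACLY did not overlap between groups but missed the threshold, ACACA with a higher level (0.18, adjusted p = 0.14) and ACLY with a lower level (−0.15, adjusted p = 0.22). Groups without overlap were 14.3% of all genes in the higher and 17.8% in the lower direction. The median over the 10 genes was −0.03, beside 0.02 over all genes, and none of the 11 adipocyte markers passed the test.

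In KD cells, 4 of the 10 genes were lower with LPS, where 6.03% of 16169 genes were lower, and none was higher, where 5.32% were. No member had an unadjusted p under 0.05 in the higher direction, and DESeq2 called none higher. FASN went from 340 ± 39.7 to 209 ± 22.1 CPM (SD, n = 3 each), −0.71 on the log2 scale (SE 0.096, adjusted p = 0.00016). ACLY went from 364 ± 8.91 to 258 ± 8.94 CPM, −0.50 (SE 0.068, adjusted p = 0.00017). GPAM went from 243 ± 32.1 to 160 ± 22.8 CPM, −0.61 (SE 0.11, adjusted p = 0.0020), opposite to its direction in scramble. DGAT2 went from 81.1 ± 22.4 to 41.1 ± 6.74 CPM, −0.98 (SE 0.17, adjusted p = 0.0013). These 4 did not overlap between groups, which held in the lower direction for 13.7% of all genes. SREBF1, at −0.34, and ACACB, at −0.56, had adjusted p of 0.10 and 0.34. The median over the members was −0.42, beside 0.01 over all genes, and none of the 11 adipocyte markers passed the test, although their median was −0.66.

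The question whether the KD difference itself changed with LPS was tested on all 12 libraries as an interaction. The estimate was negative for 10 of 10 genes under each scaling, although those of DGAT1 and AGPAT2 turned positive with certain libraries left out. Only GPAM passed the test, at −1.05 (SE 0.16, adjusted p = 0.0019), where 0.332% of 17173 genes were called in that direction and 1.28% in either. FASN was at −0.55 (adjusted p = 0.087), ACLY at −0.33 (adjusted p = 0.11) and DGAT2 at −0.72 (adjusted p = 0.14). For ACACB the value was −0.94 with an interval from −1.84 to −0.05 (adjusted p = 0.42). An unadjusted p under 0.05 was found for 6 genes, against 11.1% of all genes, and DESeq2 called 4 lower, namely FASN, ACLY, GPAM and DGAT2, against 0.984%. Without replicate 3 of KD and of KD with LPS together, edgeR called GPAM and DGAT2. In the fit of all 12 libraries, the median over the members was −0.32, beside 0.01 over all genes. That of the 11 adipocyte markers was −0.62, and none of them passed the test. The share of all genes with a negative estimate was not counted.

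**Figure D3:**
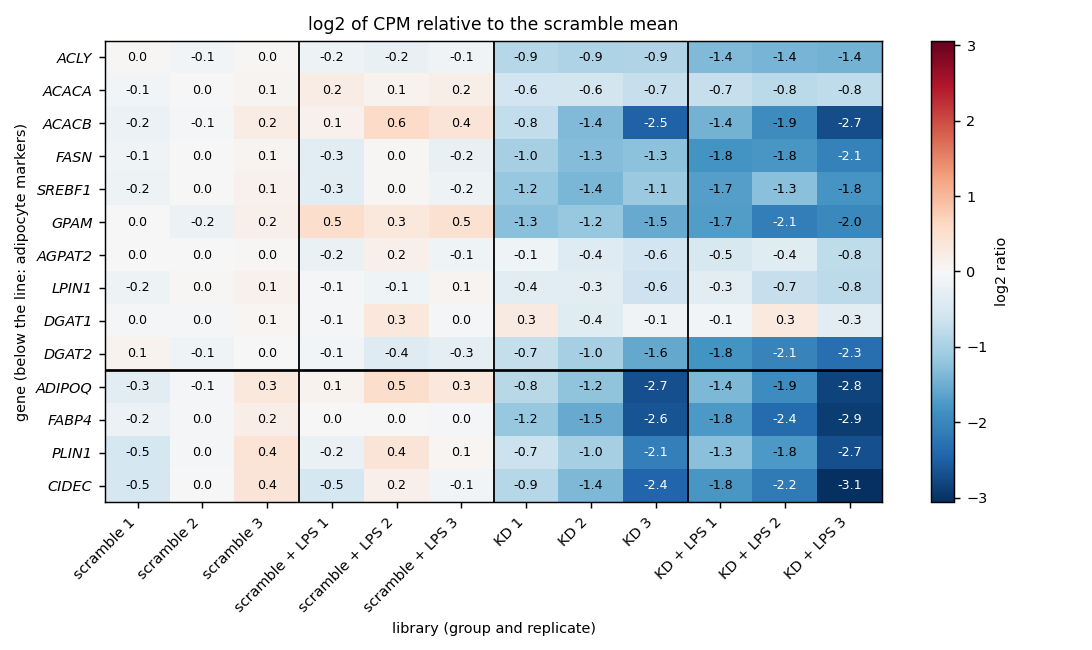
Log2 of each library's CPM relative to the mean of the 3 scramble libraries (color and printed value), for the 10 genes in rows and the 12 libraries in columns, with 4 adipocyte markers below the line. Replicate 3 of KD and of KD with LPS has the lowest ACACB, DGAT2, ADIPOQ, FABP4, PLIN1 and CIDEC of its group, while ACLY is nearly even within each group.

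The range over the 4 group means differed widely between the genes. It was 2.38 on the log2 scale for ACACB, 2.37 for GPAM, 2.04 for DGAT2, 1.89 for FASN, 1.57 for SREBF1 and 1.40 for ACLY, and then 0.93 for ACACA, 0.60 for LPIN1, 0.54 for AGPAT2 and 0.14 for DGAT1. Replicate 3 was the lowest library of KD for 6 of 10 genes and of KD with LPS for 8 of 10. Among 11810 genes averaging 50 or more counts, those with the pattern most like ACACB over the 12 libraries were ADIPOQ (adiponectin), GPD1 (glycerol-3-phosphate dehydrogenase) and TRARG1, with root mean square differences of centred log2 CPM of 0.10, 0.14 and 0.17. GPD1, for example, was at 127 ± 8.79 CPM in scramble and 54.7 ± 33.5 CPM in KD. For GPAM the nearest were TGFBI, COL4A1 and AKR1C2, at 0.21, 0.21 and 0.22, a wider distance than for ACACB.

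To set the genes roughly beside each other, levels were divided by the length of the canonical transcript in GENCODE 44. The length of the isoforms expressed was not taken into account. On this scale ACLY was the highest of the 10 in scramble at 160 CPM per kb. GPAM (95.1) and FASN (91.6) followed and overlapped, then DGAT2 (70.6), AGPAT2 (36.3) and SREBF1 (27.3), then LPIN1 (19.1) and ACACB (16.9), which overlapped, and ACACA (13.9) and DGAT1 (8.51). In KD, ACLY was still the highest at 84.9 CPM per kb, and FASN (40.2), GPAM (38.2) and DGAT2 (33.7) each overlapped the next in order. ACACB was the lowest at 6.52, with its libraries overlapping those of DGAT1 at 8.25.

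Genes that feed and finish the pathway were counted from lists of related genes, to be read beside the shares of all genes, which were 15.1% lower and 12.1% higher without LPS and 14.2% and 12.7% with LPS. Of 8 genes for precursor supply (citrate export, acetyl-CoA and NADPH), 6 were lower in KD without LPS and 7 with LPS, and none was higher, with a median log2 fold change of −0.65 and −0.96. PGD, a pentose phosphate enzyme that yields NADPH, fell by 1.42 (adjusted p = 3.6e-06) and PC, which makes oxaloacetate from pyruvate, fell by 1.54 (adjusted p = 5.2e-06). Of 6 genes that desaturate and elongate fatty acids, 5 were lower in each condition and none was higher, at medians of −0.99 and −1.56. FADS1, a desaturase of polyunsaturated fatty acids, fell by 1.90 without LPS (adjusted p = 9.0e-06) and by 2.90 with it (adjusted p = 3.5e-10).

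Other enzymes of glycerolipid assembly were mixed. Of 20 tested out of 22 listed, 9 were lower and 2 higher in KD without LPS, and 8 lower and 2 higher with LPS. ACSL5, which activates fatty acids with CoA, fell by 2.27 (adjusted p = 2.6e-07). GK, glycerol kinase, which has related copies elsewhere in the genome whose reads were not examined here, was higher by 2.14 (adjusted p = 5.7e-07). Of 15 regulators of lipogenic transcription, 3 were lower and 1 was higher without LPS, and 4 and 3 with LPS. NR1H3, the sterol-sensing receptor LXRα, fell by 1.08 (adjusted p = 3.9e-05) and PPARG, also counted among the adipocyte markers, by 0.87 (adjusted p = 0.0023). INSIG2, which retains SREBP proteins in the endoplasmic reticulum, was higher by 0.59 (adjusted p = 0.0052).

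The same lists were counted for LPS alone, where 5.90% of all genes were higher and 8.38% lower in scramble and 5.32% higher and 6.03% lower in KD. In scramble, PGD was higher by 0.54 (adjusted p = 0.0070), the only supply gene called higher, and 2 of 6 desaturation and elongation genes were higher, with 3 assembly enzymes of 19 tested higher and 3 lower and 1 regulator of 15 higher. In KD, 2 supply genes of 8 were lower, 2 of 6 desaturation and elongation genes were lower, 2 assembly enzymes of 20 were higher and 2 lower, and 2 of 15 regulators were higher, INSIG1 by 0.70 (adjusted p = 7.2e-05) and INSIG2 by 0.61 (adjusted p = 0.0054). GPAT3, an acyltransferase of the same step as GPAM, fell by 1.17 in scramble (adjusted p = 0.00018) and by 2.16 in KD (adjusted p = 1.7e-05). By the interaction, INSIG1 was higher by 0.90 (adjusted p = 0.015), where 0.943% of all genes were called higher, AGPAT4 was at −0.84 (adjusted p = 0.014) and FADS1 at −0.99 (adjusted p = 0.026), and no supply gene of 8 was called.

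**Figure D4:**
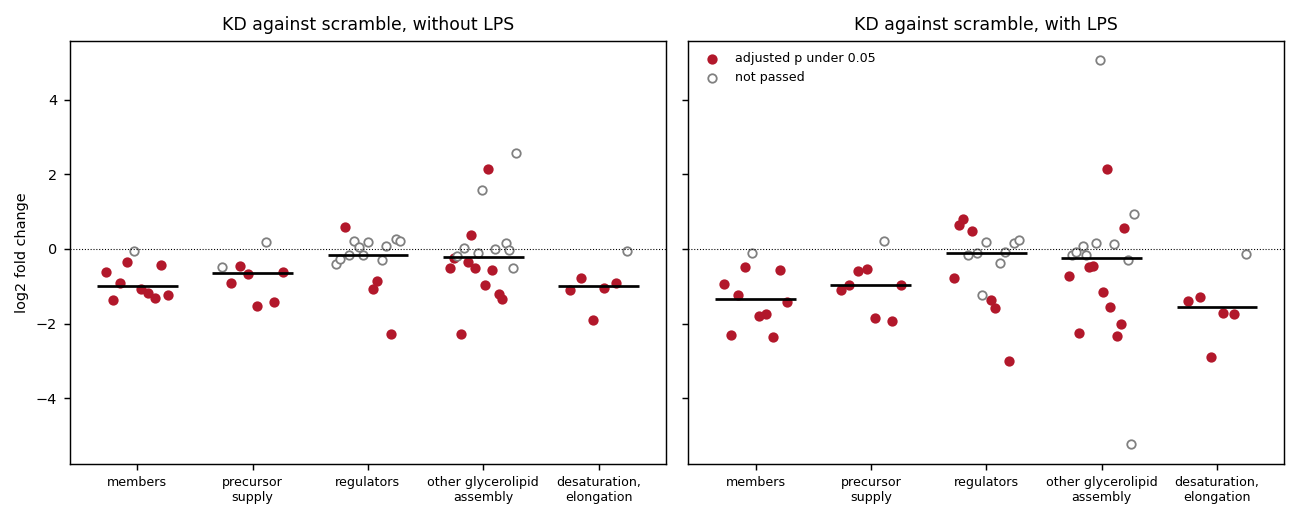
Log2 fold change of KD against scramble (y axis) without LPS (left) and with LPS (right), 1 point per gene, for the 10 genes and the 4 lists of related genes (x axis), with filled points past an adjusted p under 0.05 and a bar at each median. The medians of the 10 genes, −0.98 and −1.33, and of the desaturation and elongation genes lie lowest, and the other assembly enzymes spread to both sides of 0.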

How the data were processed

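RNA-seq of 12 libraries, 3 in each of 4 groups taken from the sample labels, was analysed. The authors pseudoaligned reads to human transcriptomes (GRCh38) with kallisto 0.44.0 and deposited estimated counts summed per gene name, not scaled for depth or length; the annotation release and strand setting are not given in the sources used here. The submitters' processing notes also name bcl2fastq 2.19 and DESeq2 1.32.0. A row without a gene name held 0.235% to 0.306% of a library's counts and was left out. Depth was 28.4 to 53.8 M (1e6) counts per library.

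After rounding, genes with 10 or more counts over the libraries of a fit were tested in R 4.3.3 with edgeR 4.0.16 (TMM, quasi-likelihood F test) and Benjamini-Hochberg adjustment over all genes tested. Pairs of groups were fitted on their 6 libraries and the interaction on 12. A gene was called at an adjusted p under 0.05. The standard error is the log2 fold change divided by the square root of F, without sign, and intervals are 95%. With 3 libraries against 3, an exact two-sided permutation test cannot go below 0.1. Alternatives were DESeq2 1.42.0, other scalings and filters, 1 fit of 4 groups, a block for the replicate number, and leaving out single libraries. The fits were also run on simulated data in which a small share of genes was changed, in both directions. That setting does not probe the choice of scaling.

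Every member is named. From each related list, up to 2 genes per direction with the smallest adjusted p were eligible to be named, and for the 2 members with the widest range, the 3 nearest genes. The members and lists were chosen with earlier results of these data known. Positions come from GENCODE 44. No sequence of FASN, DGAT1 or DGAT2 is shown, and a result of 1 listed gene is not reported here.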

Additional observations from a re-analysis of the deposited data

Results flagged for a closer look

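For GPAM the effect of KD differed between cells with and without LPS, by −1.05 on the log2 scale in edgeR's interaction test (SE 0.16, adjusted p = 0.0019). KD against scramble was −1.31 without LPS and −2.37 with LPS. LPS moved GPAM by 0.46 in scramble and by −0.61 in KD, and the groups overlapped in neither. When single libraries were left out, the difference stayed between −1.19 and −0.97, with adjusted p of 0.00071 to 0.0092, and the other settings gave −1.13 to −1.06.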

How the results depend on the processing

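The direction and call of 8 of 10 genes for KD without LPS, 9 with LPS, 5 and 7 for LPS in scramble and in KD, and 5 for the interaction were the same in all settings run. The count of members called was 8 to 9 for KD without LPS and 9 with LPS in all settings. For LPS in scramble it went from 1 to 2 with DESeq2 and without a filter, to 3 with the replicate block (ACACB higher and DGAT2 lower were added) and to 1 to 3 with 1 library left out. It was 3 without scramble with LPS replicate 1, where ACACB and DGAT2 were added, and 2 without scramble replicate 3, where ACACB was added. For LPS in KD it was 4 to 6, with ACACB and SREBF1 added under no filter or the block, and 5 without KD replicate 3 (ACACB) or KD with LPS replicate 2 (SREBF1). For the interaction it went from 1 to 4 with DESeq2, 3 without a filter and 2 with the block. It was 1 to 2 with 1 library left out, 2 only without KD replicate 3 (DGAT2), and 2 without replicate 3 of KD and KD with LPS together, a setting added after seeing the data. The cause was not tested.

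DGAT1 changed sign with scaling by library size only, to 0.059 for KD without LPS and −0.017 for LPS in KD, and to 0.045 in the interaction with both replicates 3 left out. With single libraries left out, its log2 values ranged from −0.24 to 0.090 for KD without LPS, from −0.30 to 0.030 with LPS, from −0.036 to 0.17 for LPS in scramble, from −0.15 to 0.21 for LPS in KD and from −0.24 to 0.13 in the interaction. AGPAT2 ranged from −0.15 to 0.035 and LPIN1 from −0.091 to 0.046 for LPS in scramble, and AGPAT2 from −0.25 to 0.00044 in the interaction. None of these passed the test. With 3 libraries per group such small differences are not resolved.

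Over all genes, scaling by library size turned 1965 higher and 2446 lower calls for KD without LPS into 2793 and 1757, 2026 and 2266 with LPS into 2609 and 1796, and 860 and 975 for LPS in KD into 667 and 1227. Interaction calls went from 219 to 475 with DESeq2, 431 without a filter, 139 without both replicates 3 and 92, 131, 136 and 116 without scramble replicate 2, KD replicate 1, and KD with LPS replicates 2 and 3 in turn. LPS calls in scramble went from 2274 to 1187 without scramble replicate 2 and 1461 without scramble with LPS replicate 3. For pairing, residuals of libraries with the same number had correlations of −0.13 to 0.27 in the 4 comparisons of groups, and every library was nearest its own number only for LPS in scramble, so the numbers were not taken to pair libraries. With the block, 9 members were called for KD without LPS and 9 with LPS.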
